A study of Mus musculus with 8 samples.

Results

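The levels of 10 genes of the cyclic AMP pathway, which holds mouse oocytes in meiotic arrest, were compared between non-polysomal and polysomal RNA. They were taken by symbol from a table of 25574 genes: the receptors Gpr3 and Gpr12, the G protein subunits Gnas and Gnai3, the adenylyl cyclases Adcy3 and Adcy9, the phosphodiesterase Pde3a, and the protein kinase A (PKA) subunits Prkaca, Prkacb and Prkar1a. All 10 were in the table, and 9 had a value above 0 in at least 1 library. The study separated lysates of mouse oocytes on sucrose gradients and sequenced the RNA of pooled fractions, to find which maternal mRNAs are on polysomes at nuclear envelope breakdown (NEBD). Of 10 fractions, fractions 2 to 5 gave the non-polysomal (NP) libraries and fractions 6 to 10 the polysomal (P) libraries, with 4 libraries in each dataset.

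All oocytes came from CD1 females of 8 weeks, taken 46 h after an injection of 5 IU PMSG, a gonadotropin that stimulates follicle growth. They were isolated in 100 µM IBMX, a phosphodiesterase inhibitor that keeps cyclic AMP high, cultured without it for 180 min, during which those that had undergone NEBD were selected, and given cycloheximide (0.1 mg/ml, 10 min) to hold ribosomes on mRNA. Each profile used 200 pooled oocytes. The NP and P groups shared all of these agents, and no untreated or arrested oocytes were among the 8 libraries.

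In the growing follicle, a receptor of the GPR3 family on the oocyte activates the stimulatory G protein, which drives adenylyl cyclase to make cyclic AMP. Cyclic AMP keeps PKA active, and PKA holds the kinase that starts meiosis in check. When cyclic GMP from the surrounding cells drops, the phosphodiesterase PDE3A degrades cyclic AMP and the oocyte resumes meiosis.

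Values are FPKM as deposited, that is fragments relative to gene length and library size. They move in whole steps, each called a read here, although a step may stand for a fragment. The recovered number of reads per library was 1299377 to 7594637 in NP and 2677946 to 4699328 in P. All 12 oocyte markers examined were detected, and 10 of them exceeded 1 FPKM in all 8 libraries, with summed levels of 6385 to 12390 FPKM in NP and 8863 to 30150 FPKM in P. Of 14 granulosa and cumulus cell markers, Foxl2, Inhba, Npr2 and Has2 were at 0 throughout, while Cyp19a1 (6.07 to 75.2 FPKM in NP, 0.190 to 62.6 in P) and Nr5a2 (8.43 to 61.4 in NP, 0.487 to 36.0 in P) were above 0 in all 8 libraries and Cyp11a1 reached 46.4 FPKM. The list summed to 15.3 to 142 FPKM in NP and 21.2 to 64.0 FPKM in P. The part of follicle cells in the results below was not tested.

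The ends of the mRNAs are shown first, because loading of stored oocyte mRNAs at this stage is known to be linked to signals near the 3′ end. The 100 bases at the end of each transcript were searched on the sense strand for the polyadenylation hexamer (AATAAA or ATTAAA) and for the cytoplasmic polyadenylation element (CPE; TTTTAT or TTTTAAT), which can share bases with the hexamer. Over 11014 genes with such a window, 79.7% held a hexamer and 19.2% held a CPE. Among the 10 genes, the hexamer was in 7 and the CPE in Adcy3 alone. The Pde3a window, chr6:141507349-141507448, lies beyond the end of its measured row at 141499351. The lack of both motifs there is for an end outside that row. The stretches below are from GRCm38, 5′ to 3′ on the gene's strand, with hexamers and the CPE in capitals, for the genes with the clearest differences below, for the first receptor, for the regulatory subunit and for the gene with a CPE.
Gpr3, chr4:133209348-133209377, minus strand: ccaaccctactcAATAAAaaaaaaatggtt
Gnai3, chr3:108107299-108107328, minus strand: acctttctgttaATTAAAaatagaagttct
Adcy3, chr12:4213487-4213516, plus strand: agaacaggactgTTTTATTAAAagctttac
Prkaca, chr8:83996414-83996443, plus strand: attaccAATAAAgttttgttttaaAATAAA
Prkar1a, chr11:109669615-109669644, plus strand: ggtaggtcacagAATAAAaaagatgaaata
The motifs are matches of letters in this window only. Genes with a CPE there had a median log2 fold change of P over NP of −0.37 (2113 genes) and genes without one a median of −0.40 (8901 genes).

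Across the 10 genes, Gnai3 was the one whose P libraries all lay above its NP libraries, and Prkaca had the most negative fold change. By limma on log2(FPKM + 1) over 14292 genes, 0 of the 9 tested genes passed an adjusted p of 0.1, where 0.021% of all genes did, and the lowest adjusted p was 0.416. An unadjusted limma p below 0.05 was reached by 2 of the 9, Gnai3 and Prkaca, against 9.95% of all genes. Gnai3 was higher in P, as were 0.476% of all genes at that p, and Prkaca was higher in NP, as were 9.47%. For 1 of the 9, Gnai3, all libraries of one dataset lay beyond the other, against 6.28% of all genes, or 0.357% with P above NP. The log2 fold change was above 0 for 6 of the 9 genes, against 28.6% of all genes, with a median of 0.48 against −0.39. Values more than 1 above that median were seen for 3 of the 9 (Gnai3, Adcy9 and Pde3a), against 9.54% of all genes. Adcy9 was 0.50 above it without P replicate 2, and Pde3a 0.87 above it without P replicate 3. Of the 6 genes with a fold change above 0, Adcy3 fell to −0.087 without P replicate 1 and Prkacb to −0.33 without P replicate 3. The P libraries had 9139 to 11339 genes above 0 and the NP libraries 11703 to 13753. The part of this difference in the fold changes of all genes was not tested. The median of all genes was −0.02 after quantile normalization, 0.21 after setting each library to one median and −0.91 for voom on recovered reads, so fold changes are also given relative to it. FPKM are scaled to the reads of each library, so the fold changes compare relative shares of NP and P libraries. Because each profile pools 200 oocytes, a change in each oocyte and a change in some of them cannot be told apart.

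**Figure D1:**
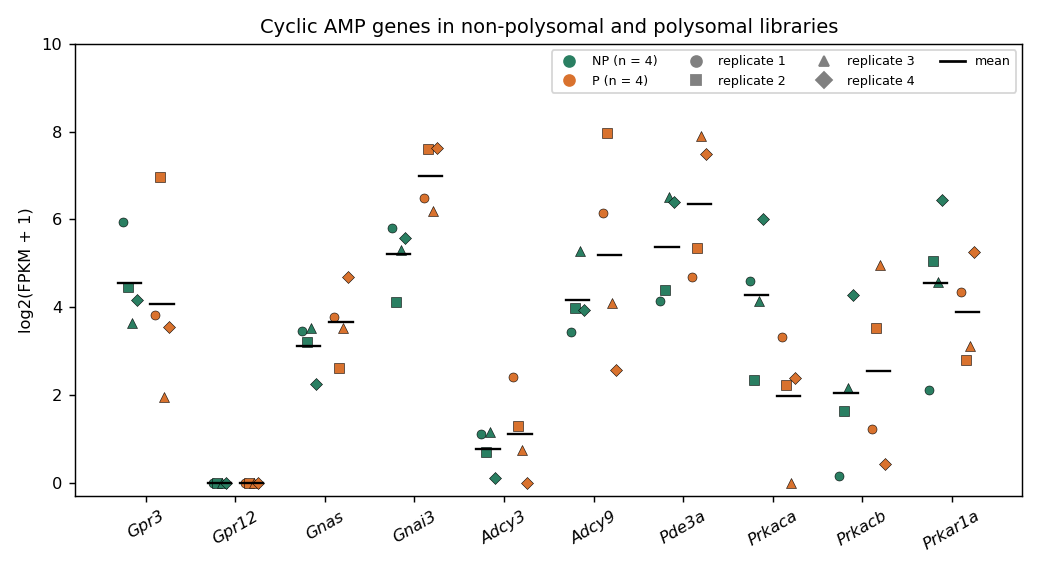
Level of each of the 10 genes as log2(FPKM + 1) in the 4 NP (green) and 4 P (orange) libraries, with marker shapes for replicates and a bar at the mean. The Gnai3 datasets are apart, Gpr12 is at 0 in all libraries, and the other genes overlap.

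Gpr3 (chr4:133209340-133212536, minus strand) encodes the constitutively active receptor that keeps cyclic AMP high in mouse oocytes. Its level was 60.7, 21.1, 11.6 and 16.8 FPKM in NP replicates 1 to 4 and 13.2, 125, 2.88 and 10.8 FPKM in P replicates 1 to 4. P replicate 2 alone held 82.3% of the summed P level, and the other P libraries lay at or below 13.2 FPKM, so the datasets overlapped. The mean was 27.6 ± 22.5 FPKM in NP and 38.0 ± 58.2 FPKM in P (SD, n = 4 each), whereas the log2 fold change of P over NP was −0.48 ± 0.97 (SE, limma, adjusted p = 0.837, exact permutation test, 2-sided, p = 0.743). It turned to 0.10 after quantile normalization and to 0.76 with one median, and to 0.23 without P replicate 3. Its 5′ end shares 204 exonic bases with Cd164l2 on the opposite strand, which had 335 to 2084 reads and, outside P replicate 2, 6.48 to 27.1 times the FPKM of Gpr3. Reads of the shared part cannot be assigned without strand, and their part in the Gpr3 values was not tested. Gpr12, a related receptor (chr5:146582151-146585239, minus strand), was at 0 FPKM in all 8 libraries. A count of 0 allows up to 3 reads, which is 0.157 to 0.919 FPKM over the libraries, so a lower level was not detectable at this depth.

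Of the G protein subunits, Gnai3 (chr3:108107280-108146146, minus strand) encodes an inhibitory alpha subunit, which lowers adenylyl cyclase activity. Its level was 55.1, 16.3, 38.8 and 46.9 FPKM in NP replicates 1 to 4 and 88.5, 195, 71.7 and 198 FPKM in P replicates 1 to 4. Each P library was above each NP library, with 69 to 1162 reads behind the NP values and 1039 to 2037 behind the P values. The mean was 39.3 ± 16.7 FPKM in NP and 138 ± 67.6 FPKM in P (SD, n = 4 each), a ratio of means of 3.52. The log2 fold change was 1.78 ± 0.62 (SE, 95% interval 0.44 to 3.11, limma, unadjusted p = 0.0129, adjusted p = 0.416), which is 2.17 above the median of all genes. The exact permutation test gave p = 0.0286, the smallest that 4 against 4 libraries allow. The fold change stayed between 1.41 and 3.09 over 15 alternatives, with limma adjusted p values of 0.307 to 0.731. Its unadjusted limma p was 0.0519 without NP replicate 2.

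Gnas (chr2:174284320-174346744, plus strand) encodes the stimulatory alpha subunit. Its level was 9.97, 8.26, 10.4 and 3.79 FPKM in NP replicates 1 to 4 and 12.7, 5.16, 10.6 and 24.6 FPKM in P replicates 1 to 4. P replicate 4 was the highest and NP replicate 4 the lowest, and the other libraries were mixed. The log2 fold change was 0.54 ± 0.76 (SE, limma, adjusted p = 0.770, exact permutation p = 0.314), and it was 0.20 without P replicate 4 and 0.88 without P replicate 2.

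The Gnas row shares its reads with another row. Gm20721 (chr2:174330319-174346712) is annotated on the opposite strand, and 8 of its 13 exons lie inside exons of Gnas, 4 of them with the same ends. One such exon of 68 bases, chr2:174345990-174346057 in GRCm38, is printed on the strand of Gnas, because reads from it enter both rows where strand is not used.
Shared exon: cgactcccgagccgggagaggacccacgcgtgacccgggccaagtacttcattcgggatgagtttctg
The Gm20721 row held 98.0% to 99.2% as many reads as the Gnas row, library by library. Its FPKM was 7.39 to 7.48 times higher, since its model is shorter and the overlap covers 13.1% of the Gnas model. Its level was 60.3 ± 22.4 FPKM in NP and 98.7 ± 61.5 FPKM in P (SD, n = 4 each), with a log2 fold change of 0.59 ± 0.63 (SE, limma, adjusted p = 0.713). How far a level belongs to Gnas or to Gm20721 cannot be told apart.

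**Figure D2:**
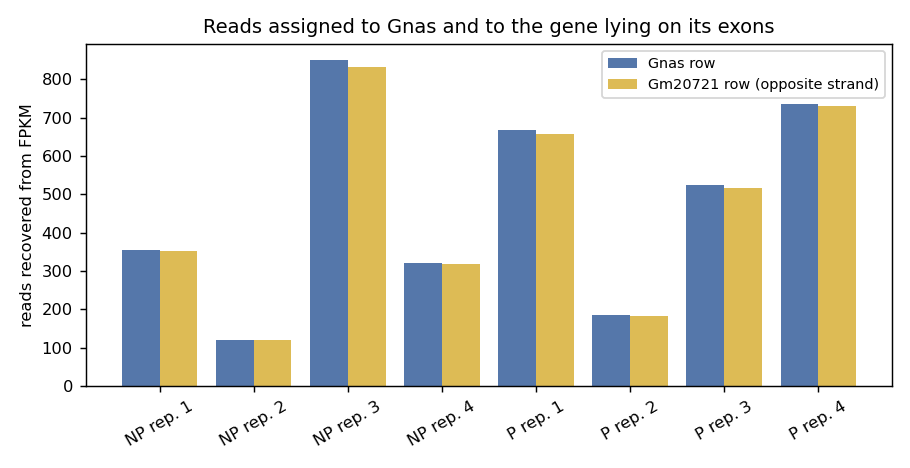
Reads recovered from the FPKM values (vertical axis) for the Gnas row and the Gm20721 row in each of the 8 libraries. The Gm20721 bar is 98.0% to 99.2% of the Gnas bar in each library.

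Adcy3 (chr12:4133103-4213525, plus strand) and Adcy9 (chr16:4287529-4420498, minus strand) encode adenylyl cyclases, which make cyclic AMP. Adcy3 was low, with 1.15, 0.616, 1.23 and 0.0843 FPKM in NP replicates 1 to 4 and 4.29, 1.45, 0.684 and 0 FPKM in P replicates 1 to 4. The 0 of P replicate 4 allows up to 0.179 FPKM, and the highest P library had 126 reads. The datasets overlapped, with a log2 fold change of 0.34 ± 0.60 (SE, limma, adjusted p = 0.810, exact permutation p = 0.543), which became −0.087 without P replicate 1. Cenpo, on the opposite strand, shares 1380 exonic bases with Adcy3 and was at 32.9 to 77.2 FPKM.

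Adcy9 was 9.89, 14.8, 37.9 and 14.3 FPKM in NP replicates 1 to 4 and 70.1, 248, 16.1 and 4.96 FPKM in P replicates 1 to 4. P replicate 2 was 50.1 times P replicate 4, so the P libraries spanned the whole NP range. The log2 fold change was 1.04 ± 1.0 (SE, limma, adjusted p = 0.690, exact permutation p = 0.429), and it was 0.11 without P replicate 2 and 1.91 without P replicate 4. Adcy9 made up 89.6% to 99.4% of the summed FPKM of Adcy3 and Adcy9 in NP and 94.2% to 100% in P. This share leaves out the 6 other cyclases tested in the wider pathway. Their mean levels summed to 52.5 FPKM in NP and 66.5 FPKM in P, beside means of 19.2 and 84.9 FPKM for Adcy9.

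Pde3a (chr6:141249269-141499351, plus strand), which degrades cyclic AMP and is blocked by cyclic GMP, was the gene with the highest NP mean. Its level was 16.8, 19.9, 90.3 and 83.3 FPKM in NP replicates 1 to 4 and 24.6, 39.5, 238 and 180 FPKM in P replicates 1 to 4. In both datasets replicates 3 and 4 were high and replicates 1 and 2 low. The log2 fold change was 0.99 ± 0.85 (SE, limma, adjusted p = 0.663, exact permutation p = 0.371), and it was 0.48 without P replicate 3 and 1.55 without P replicate 1. The length recovered for its row was 4205 bases, whereas the annotation used here has 12737 exonic bases, of which the transcript searched above has 8555 in its 3′ UTR, so its level against other genes depends on that model.

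PKA is a complex of catalytic subunits, here Prkaca and Prkacb, and regulatory subunits such as Prkar1a that hold them inactive until cyclic AMP binds. Prkaca (chr8:83972978-83996445, plus strand) was 23.4, 4.03, 16.5 and 63.2 FPKM in NP replicates 1 to 4 and 9.0, 3.67, 0 and 4.23 FPKM in P replicates 1 to 4. NP replicate 2 lay within the range of the P libraries, while the other NP libraries lay above each of them. NP replicates 1 to 4 had 171, 12, 276 and 1100 reads, and P replicates 1 to 4 had 97, 27, 0 and 26. The 0 of P replicate 3 allows up to 0.294 FPKM. The mean was 26.8 ± 25.5 FPKM in NP and 4.23 ± 3.70 FPKM in P (SD, n = 4 each), a log2 fold change of −2.28 ± 0.99 (SE, 95% interval −4.40 to −0.17, limma, unadjusted p = 0.0364, adjusted p = 0.478). It was 1.89 below the median of all genes, and the exact permutation p was 0.0857. The fold change stayed negative over 15 alternatives, from −3.83 to −1.33, with limma adjusted p values of 0.283 to 0.75. Its unadjusted limma p was 0.13 after quantile normalization and 0.25 with one median. Leaving out NP replicate 1, 3 or 4 or P replicate 3 gave an unadjusted limma p of 0.0823, 0.0643, 0.133 and 0.104. In the other alternatives the unadjusted limma p was 0.0136 to 0.0485.

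Prkacb (chr3:146729579-146812960, minus strand) had the widest range of values above 0, with 0.115, 2.12, 3.43 and 18.3 FPKM in NP replicates 1 to 4 and 1.33, 10.5, 30.3 and 0.343 FPKM in P replicates 1 to 4. The highest library was 159 times the lowest in NP and 88.4 times in P. The lowest libraries, NP replicate 1 and P replicate 4, held only 2 and 5 reads. Its log2 fold change was 0.48 ± 1.18 (SE, limma, adjusted p = 0.869, exact permutation p = 0.743), and it turned to −0.15 without NP replicate 1 and to −0.33 without P replicate 3. Prkar1a (chr11:109649405-109669656, plus strand) was 3.33, 32.1, 23.0 and 85.5 FPKM in NP replicates 1 to 4 and 19.4, 5.99, 7.70 and 37.2 FPKM in P replicates 1 to 4. Replicate 4 was the highest in both datasets, which overlapped. The log2 fold change was −0.66 ± 0.93 (SE, limma, adjusted p = 0.769, exact permutation p = 0.543), and with one median it turned to 0.59.

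**Figure D3:**
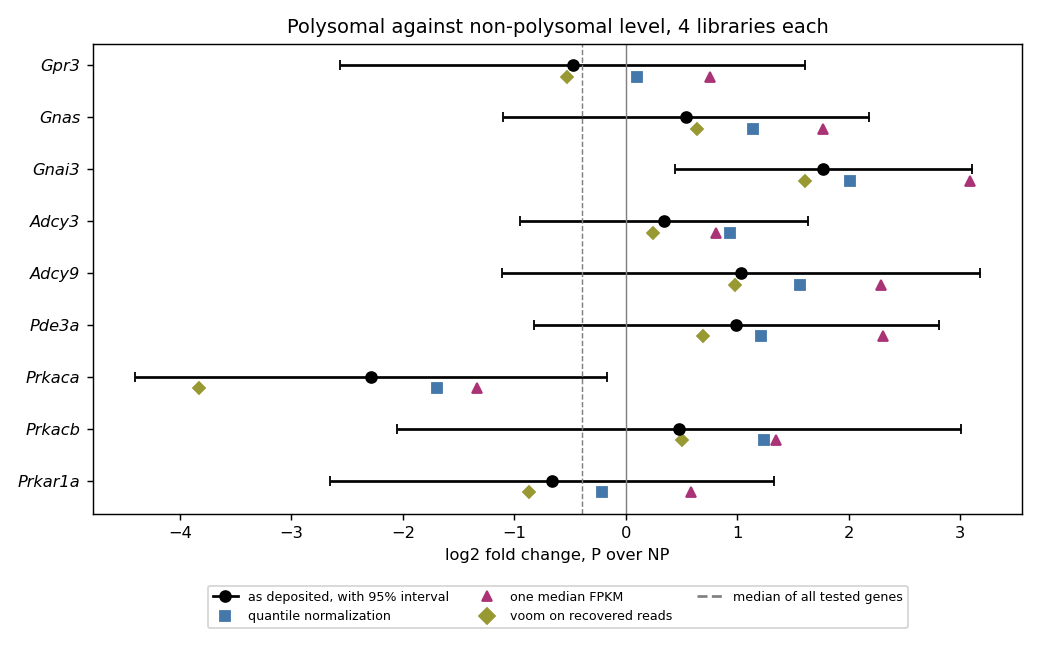
Log2 fold change of P over NP for the 9 tested genes, as deposited with the 95% limma interval (black), and under quantile normalization, one median FPKM and voom on recovered reads. The intervals of Gnai3 and Prkaca leave out 0, and the dashed line is the median of all genes, −0.39.

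In order of mean level the NP libraries had Pde3a, Gnai3, Prkar1a, Gpr3, Prkaca, Adcy9, Gnas, Prkacb, Adcy3 and Gpr12, and the P libraries had Gnai3, Pde3a, Adcy9, Gpr3, Prkar1a, Gnas, Prkacb, Prkaca, Adcy3 and Gpr12. Neighbours in these orders overlapped in their ranges, except Adcy3 and Gpr12 in NP. That separation is within the floor, since Adcy3 was 0.0843 FPKM in NP replicate 4, where the 0 of Gpr12 allows up to 0.157 FPKM. The place of Gnas rests on its model of 11186 bases, since the Gm20721 row, with nearly the same reads, had an NP mean of 60.3 FPKM, above the 52.6 FPKM of Pde3a. In its own library, Gnai3 stood at a median percentile of 84.4 among all genes in NP and of 93.6 in P.

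Ratios of (FPKM + 1) between genes within a library depend less on the scaling between libraries where both genes lie well above 1 FPKM. Of 6 ratios, that of Gpr3 over Gpr12 is the level of Gpr3 alone, since Gpr12 was at 0 throughout, and it tests no ratio. None of the other 5 passed the exact permutation test between the datasets, with Benjamini-Hochberg adjusted p values of 0.643 to 1 over these 5. Gnas over Gnai3 was −2.09 ± 1.01 in NP and −3.33 ± 1.12 in P on the log2 scale (SD, n = 4 each, exact p = 0.2). Prkaca over Prkacb was 2.22 ± 1.59 in NP and −0.55 ± 3.34 in P (exact p = 0.257). The share of Prkaca in their sum was 65.5% to 99.5% in NP and 0% to 92.5% in P. The 99.5% rests on 2 reads of Prkacb in NP replicate 1 and the 0% on 0 reads of Prkaca in P replicate 3. The share also depends on the recovered lengths, 2293 bases for Prkaca and 5451 for Prkacb, where the annotation has 2488 and 8772 exonic bases. Prkar1a over the sum of the catalytic subunits differed by 0.17 (exact p = 0.886). Pde3a over the sum of Adcy3 and Adcy9 differed by −0.02 (exact p = 1).

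Gnai2, the other well expressed inhibitory alpha subunit, had 152, 150.2, 126 and 54.1 FPKM in NP replicates 1 to 4 and 55.8, 13.6, 43.6 and 30.2 FPKM in P replicates 1 to 4. Its log2 fold change was −1.78 ± 0.63 (SE, limma, adjusted p = 0.416, exact permutation p = 0.0571). The ratio of Gnai3 over Gnai2 was chosen after these values were seen. On the log2 scale it was −1.44, −3.13, −1.68 and −0.20 in NP and 0.66, 3.74, 0.70 and 2.68 in P, with no overlap and a difference of 3.56 (exact permutation p = 0.0286). Without P replicate 2 the difference was 2.96 (exact permutation p = 0.0571). Without any other single library it was 3.05 to 4.03 (exact permutation p = 0.0286, the smallest that 4 against 3 libraries allow). Datasets without overlap stay apart when 1 library is left out, so these p values are no further test.

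**Figure D4:**
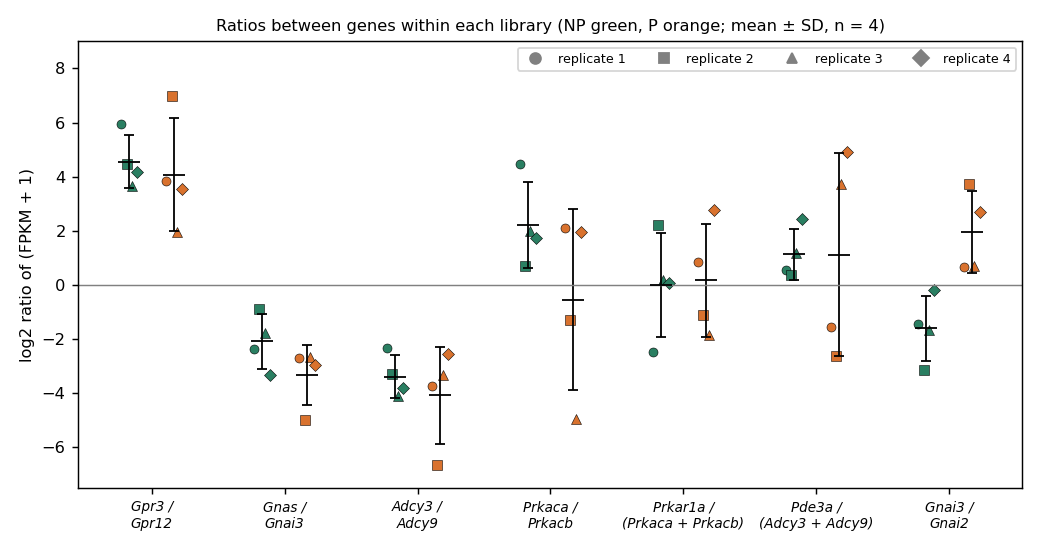
Log2 ratios of (FPKM + 1) between genes of the same library, NP in green and P in orange, with mean and SD (n = 4). Gpr3 over Gpr12 shows Gpr3 alone. The ratios overlap between the datasets apart from Gnai3 over Gnai2, which was chosen after its values were seen.

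Other genes of the pathway were counted from a list of 90 rows by role. Of these, 73 were tested, and by limma 0 passed an adjusted p of 0.1, while 8 had an unadjusted p below 0.05, each higher in NP, where 9.47% of all genes did so. The list had a median log2 fold change of −0.40, against −0.39 for all genes, with 24 positive and 49 negative values, and 7 genes had each NP library above each P library, against 5.92% of all genes. Among them, Rapgef3, a cyclic AMP-activated exchange factor, was 10.3 ± 8.99 FPKM in NP and 0.376 ± 0.411 in P (log2 fold change −2.68 ± 0.87, limma, adjusted p = 0.405). The transcription factor Creb1, a target of PKA, was 14.9 ± 13.1 FPKM in NP and 1.35 ± 1.81 in P (−2.75 ± 0.93, limma, adjusted p = 0.416). The phosphatase Cdc25c, which acts on the kinase that starts meiosis, was 14.9 ± 12.7 FPKM in NP and 0.635 ± 0.358 in P (−2.86 ± 0.91, limma, adjusted p = 0.405). The gap junction gene Gja4 was 1408 ± 694 FPKM in NP and 537 ± 160 in P (−1.32 ± 0.54, limma, adjusted p = 0.456). The phosphodiesterase Pde4b was low, at 1.71 ± 2.04 FPKM in NP and 0.102 ± 0.169 in P (−1.07 ± 0.48, limma, adjusted p = 0.493).

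The list's well expressed genes overlapped between the datasets, except Gja4. Rgs2, a regulator of G protein signalling, was 89.4 ± 29.9 FPKM in NP and 128 ± 145 in P, and Akap1, which anchors PKA at mitochondria, was 87.6 ± 24.2 and 158 ± 86.9. The phosphodiesterase Pde1b was 116 ± 34.9 and 75.5 ± 36.5, and the oocyte kinase Wee2, which PKA activates, was 628 ± 334 and 421 ± 289. Cdc25a was 61.7 ± 19.7 and 60.3 ± 61.8, Cdc25b 115 ± 71.6 and 84.5 ± 89.7, and Akt1 75.2 ± 40.0 and 107 ± 87.8. The kinase subunits Cdk1, Ccnb1 and Ccnb2 were 67.9 ± 47.9, 1287 ± 306 and 94.1 ± 46.6 FPKM in NP, and 121 ± 128, 840 ± 388 and 145 ± 260 FPKM in P. By limma these 10 genes had adjusted p values of 0.644 to 0.987.

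**Figure D5:**
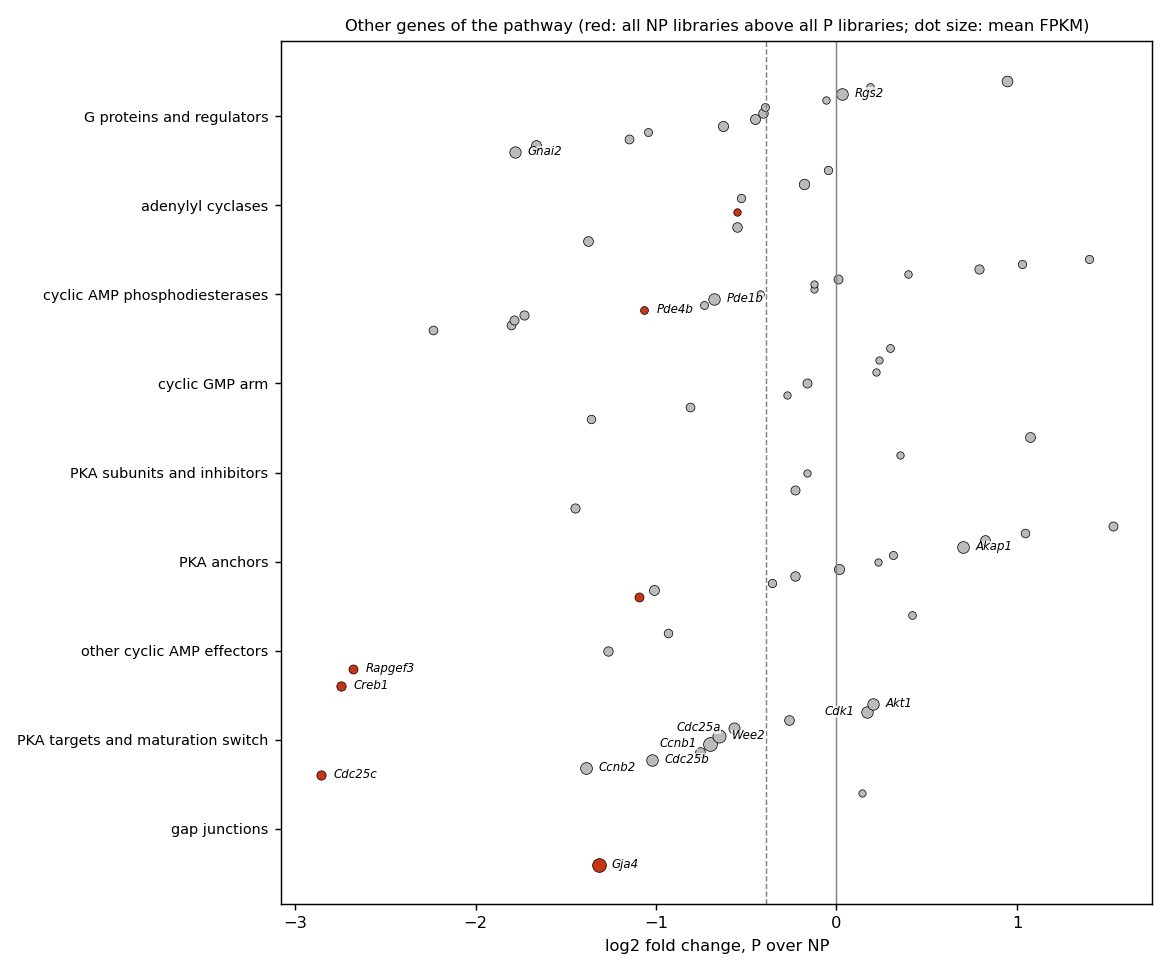
Log2 fold change of P over NP (horizontal axis) for the 73 tested genes of the wider pathway, in rows by role, with dot size for mean FPKM. The 7 red dots are genes with each NP library above each P library, and the dashed line is the median of all genes, −0.39.

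The genes most like Gpr3 over the 8 libraries, among 5638 with a mean above 10 FPKM, were Nmnat1, ORF61 and Thoc6, with Pearson r of 0.92, 0.92 and 0.91. Those most like Pde3a were Bms1, D10Wsu102e and Mfap3, with r of 0.97, 0.97 and 0.93. The points share libraries and depth, and the correlations are descriptions over 8 libraries only.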

How the data were processed

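RNA was measured in 4 NP and 4 P libraries. After removal of ribosomal RNA, cDNA primed with random and oligo(dT) primers was amplified and made into libraries. The authors trimmed reads with Trim Galore 0.4.1, checked them with FastQC 0.11.5, used HISAT2 2.0.5 with the GRCm38 assembly, and took gene levels from Seqmonk. The deposited values are FPKM per gene and library, made by the authors with scaling to gene length and reads per library. The authors' mean columns in this table served only as a check (largest deviation 0.000575 FPKM). Another table, which lists expressed genes with mean ratios, and a table with fold changes and p values of the authors' own P against NP test, were not used.

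FPKM values were tested on log2(FPKM + 1) with limma 3.58.1 in R 4.3.3 (trend, 2-sided, Benjamini-Hochberg), for 14292 genes with a mean above 0.1 FPKM in at least 1 dataset, at an adjusted p of 0.1. Reads were recovered from the steps of FPKM for 13590 of 15585 genes above 0. These 13590 genes held 96.1% of values above 0. A gene was kept only where its values were whole within 0.01 plus 2e-06 of the count. For 6612 genes the length was searched to make the values whole, so wholeness is no check for them. Recovered reads served for depth, floors of 3 reads and a voom fit. Floors cover counting error only, since amplified reads are not independent molecules, whereas the limma intervals rest on the spread between libraries. Exact permutation tests over 70 assignments used Python 3.11.15 with scipy 1.17.1. Figures were drawn with matplotlib 3.10.9. The fits were tested on simulated data. The study describes its 4 profiles as independent biological replicates, and both the NP and the P pools came from fractions of these profiles. Except in the replicate block, the p values treat all libraries as independent. They rest on the spread between libraries within each dataset and leave out that an NP and a P library can share a profile.

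The genes named are the 10 listed genes, pathway genes with a mean of 50 FPKM or more or without overlap at an unadjusted limma p below 0.05, genes most like Gpr3 and Pde3a, and cell type markers. These genes and lists were chosen with earlier results of these data known. Alternatives were a pseudocount of 0.1, other filters, quantile normalization, one median, voom, a replicate block and each library left out. Gene models and 3′ ends are from GENCODE M21.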

Additional observations from a re-analysis of the deposited data

Results flagged for a closer look

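In 64 groups of 4 libraries, 6 held a library far from the others. The cut-off flags about 1 in 20 groups of normally distributed values. FPKM on their own scale are skewed, so the count cannot be set against that rate. Gpr3 reached 125 FPKM in P replicate 2, with the next P library at 13.2 FPKM. Rgs2 reached 345 FPKM in P, also in replicate 2, next to 76.4 FPKM. Ccnb2 reached 535 FPKM in P replicate 1, next to 23.0 FPKM. Pde4b reached 4.75 FPKM in NP replicate 3, next to 0.860 FPKM, and 0.354 FPKM in P replicate 2, next to 0.0354 FPKM. The log2 ratio of Gnas over Gnai3 was −4.99 in P replicate 2, next to −2.96.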

How the results depend on the processing

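The number of genes called by limma was 3, and it became 5 with a pseudocount of 0.1 and with a filter at 1 FPKM, 0 without a filter, after quantile normalization and with one median, 1 with the replicate block and 189 with voom, with 0 to 5 called when single libraries were left out. No gene of the 10 was called under these settings. Same-numbered libraries deviated together with r of 0.139, 0.0518, 0.251 and 0.155. Libraries of different numbers had r of −0.135 to 0.136, mostly below 0, with the highest for NP replicate 2 and P replicate 1. No source ties the numbers to a shared gradient, so pairing by number entered only the replicate block. The block brought none of the 10 genes past the threshold, with limma adjusted p values of 0.47 for Pde3a (SE 0.54, unadjusted p = 0.0905), 0.328 for Gnai3 and 0.364 for Prkaca. Among the 10 genes, Gpr3 turned to 0.10 after quantile normalization and 0.76 with one median, and was −1.44 to 0.23 when single libraries were left out. Prkar1a turned to 0.59 with one median. Leaving out single libraries gave −0.087 to 0.71 for Adcy3 and −0.33 to 1.22 for Prkacb. The pathway list's median was −0.68 with a pseudocount of 0.1, 0.080 after quantile normalization, 0.36 with one median and −0.81 with voom, where 1 of its genes was called. Of the ratios, Pde3a over the sum of Adcy3 and Adcy9 turned to 0.0067 with a pseudocount of 0.1 and 0.012 on reads. It was −1.28 to 1.23 without single libraries (0.00030 without NP replicate 3, 0.42 without NP replicate 4, 0.88 without P replicate 1). Prkar1a over the catalytic subunits turned to −0.13 on reads and was −0.70 to 0.91 without single libraries (−0.66 without NP replicate 1, −0.06 without P replicate 1). Adcy3 over Adcy9 was −1.20 to 0.17 without single libraries, and Gpr3 over Gpr12 repeats the values of Gpr3, since Gpr12 was at 0. The cause of these changes was not tested. The floor of 3 reads was applied to the values of 0, which are Gpr12 in all libraries, Adcy3 in P replicate 4 and Prkaca in P replicate 3. Prkacb in NP replicate 1 had 2 reads, below that floor, and 5 in P replicate 4. Adcy3 had 5 reads in NP replicate 2 and 4 in NP replicate 4.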

Other observations

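By role, the PKA anchors had a median log2 fold change of P over NP of 0.23, against −0.39 for all genes. Of 11 tested anchors, 7 were above 0, against 28.6% of all genes. The anchors' median was the value of Akap4, which was at 0 in all libraries except P replicate 3 (0.892 FPKM). The other cyclic AMP effectors had a median of −1.27, with 1 of 5 above 0. The cyclic GMP arm, which feeds into PDE3A, had a median of −0.17, with 3 of 7 above 0, and summed to 13.3 FPKM in NP and 15.8 FPKM in P. These are descriptions of lists, with no test, and values above 0 depend on the scaling, which moved the median of all genes between −0.91 and 0.21.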
